A study of Oryza sativa Indica Group with 12 samples.

Results

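Class III peroxidases and laccases are the enzymes that finish the lignin of plant cell walls. Here they are all genes whose RefSeq symbol or synonym is PRX or LAC with a number, with or without the prefix Os, and which a probe set with 1 gene in the array's annotation measured. The rule took 11 of the 17905 genes with such a probe set, 2 peroxidases (PRX74 and PRX112) and 9 laccases (LAC3, LAC4, LAC7, LAC10, LAC15, LAC19, LAC20, LAC23 and LAC24). By name 14 genes of the RefSeq gene table fit, and LAC1, LAC18 and LAC21 have no such probe set on this array. Rice has many more class III peroxidases that the gene table lists by locus alone, so the 2 peroxidases do not stand for their family. The families were taken from the names, since the tables used for the rule hold no protein descriptions. The rule used no measured value, but where a gene had several probe sets the one with the highest mean was taken.

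The 12 Affymetrix rice arrays measured RNA of seedlings of the indica cultivar IR64, grown hydroponically with 16 h of light and 8 h of dark and harvested without their seeds. Seedlings before transfer (0h) had grown for 5 days on the normal medium. KP seedlings then spent 5 more days on medium with 0.409 mM K2SO4, and KM seedlings spent them on the same medium with 0 mM. KR seedlings were KM seedlings to which 0.409 mM K2SO4 was given back for 6 h. Each group has 3 arrays, labelled as biological replicates. A treatment tag of the 0h arrays names the potassium-deficient medium, against their title and source name, and they were kept as 0h. The hour of harvest is not given, so KR may differ from KM by 6 h of the day as well as by potassium. Values are log2 of GCRMA intensity, and the arrays' medians lie between 2.70 and 2.83, highest in KR. A gene near these medians was near background, and the size of its change is then uncertain. Replicates of a group correlated at 0.985 to 0.997 over all probe sets on the linear scale, where the brightest probe sets weigh most.

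Class III peroxidases are secreted haem enzymes that use hydrogen peroxide to oxidise phenolic compounds. Laccases are secreted copper enzymes that take electrons from the same kind of substrate and pass them to oxygen. In the wall, both turn monolignols, the phenolic alcohols made by the phenylpropanoid pathway, into radicals that couple to lignin. Peroxidases can also cross-link other wall polymers and both use up and produce reactive oxygen species. Levels were measured in whole seedlings, where fewer cells of a type and less RNA per cell cannot be told apart.

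On medium without potassium 2 laccases rose and no member fell past the thresholds, and after resupply 5 laccases fell while both peroxidases rose. A gene was called when limma's Benjamini-Hochberg adjusted p over all 57258 probe sets was under 0.05 and the change was at least 2-fold. In KM against KP, 2 of 11 members were called higher against 0.954% of all probe sets, and 0 of 11 lower against 1.59%. At an unadjusted limma p under 0.05 and with no fold threshold 3 members were lower there (PRX74, PRX112 and LAC10), and the methods' t-test, Student's test with the same adjustment and thresholds, called 0 lower. In KR against KM, 2 of 11 were called higher against 1.75% of all probe sets, and 5 of 11 lower against 2.06%. In KR against KP, 1 was called higher against 1.15% and 3 lower against 2.06%. In KP against 0h, 3 were called higher against 5.87% and 1 lower against 5.71%. Many probe sets on the array are too dim to be called. Among the 22198 probe sets with a highest group mean of at least 4 on the log2 scale, a set that holds all 11 members but LAC15 only through its KM level, the shares in KR against KM were 4.55% higher and 5.24% lower, and those in KM against KP 2.63% and 4.45%. LAC15 is called in both comparisons, so its own change placed it in that set, and the members' counts are not read against these shares. The first 2 comparisons both use the KM arrays, and the KR and KP arrays enter the third again, so these counts are not independent of each other. Counts at an unadjusted p under 0.05, here and below, are description only. With no fold threshold, 5979 of all probe sets passed even the adjusted p in KM against KP. In KR against KM 26107 did, in KR against KP 25254 and in KP against 0h 15284. The share of all probe sets at an unadjusted p was not computed.

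Markers of the organs in the sample moved between groups as well. Of 8 root markers 2 were called lower in KM against KP (the aquaporins PIP2;5 and TIP2;1) and 0 in KR against KM (3 higher at an unadjusted p under 0.05), and their summed linear intensity ran from 15015 to 22641 in KP, from 11227 to 12972 in KM and from 17219 to 19582 in KR. Of 4 leaf markers 2 were called lower in KM against KP (RCA and PORB), and 1 higher in KR against KM (PORB). In KR against KP the same 2 root markers were called lower (log2 change -1.59 for PIP2;5 and -1.26 for TIP2;1), as were the leaf marker RCA (-1.04) and the seed marker RAG2 (-1.26), and PORB was called higher (1.05). The sum of the leaf markers ran from 35109 to 37168 in KP, from 19647 to 21046 in KM and from 31259 to 32850 in KR. The brightest markers, CAB2R and RCA, weigh most in this linear sum, and single leaf markers went both ways. At an unadjusted limma p under 0.05, 3 were lower without potassium than with it and 1 was higher, GLO1 (log2 change 0.27, not called). At the same p, KR against KP had 3 leaf markers higher and only RCA lower. From 0h to KP 5 of 8 root markers, 1 of 4 leaf markers (RCA) and 1 of 6 seed markers (RAG2) were called higher. At 0h the sum was 8796 to 10376 for the root markers and 25078 to 26922 for the leaf markers. The 6 seed markers summed to 94.0 to 131 at 0h, below the 154 to 168 of KP with no overlap, and to 142 to 180 in KM and 150 to 169 in KR. The storage protein genes GLUA1 and GLUB4 were at background and WX1 was near it, while GLUA2 read 5.97 to 7.18. RAG2 read 2.31 to 2.71 at 0h and 2.25 to 2.72 in KR, near background, and 3.19 to 4.38 in KP. The sizes of its called changes are thus uncertain. Of the root markers, IRT1 and NRT2.3 were near background in every group. The part of these shifts in the changes of the peroxidases and laccases was not tested.

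**Figure D1:**
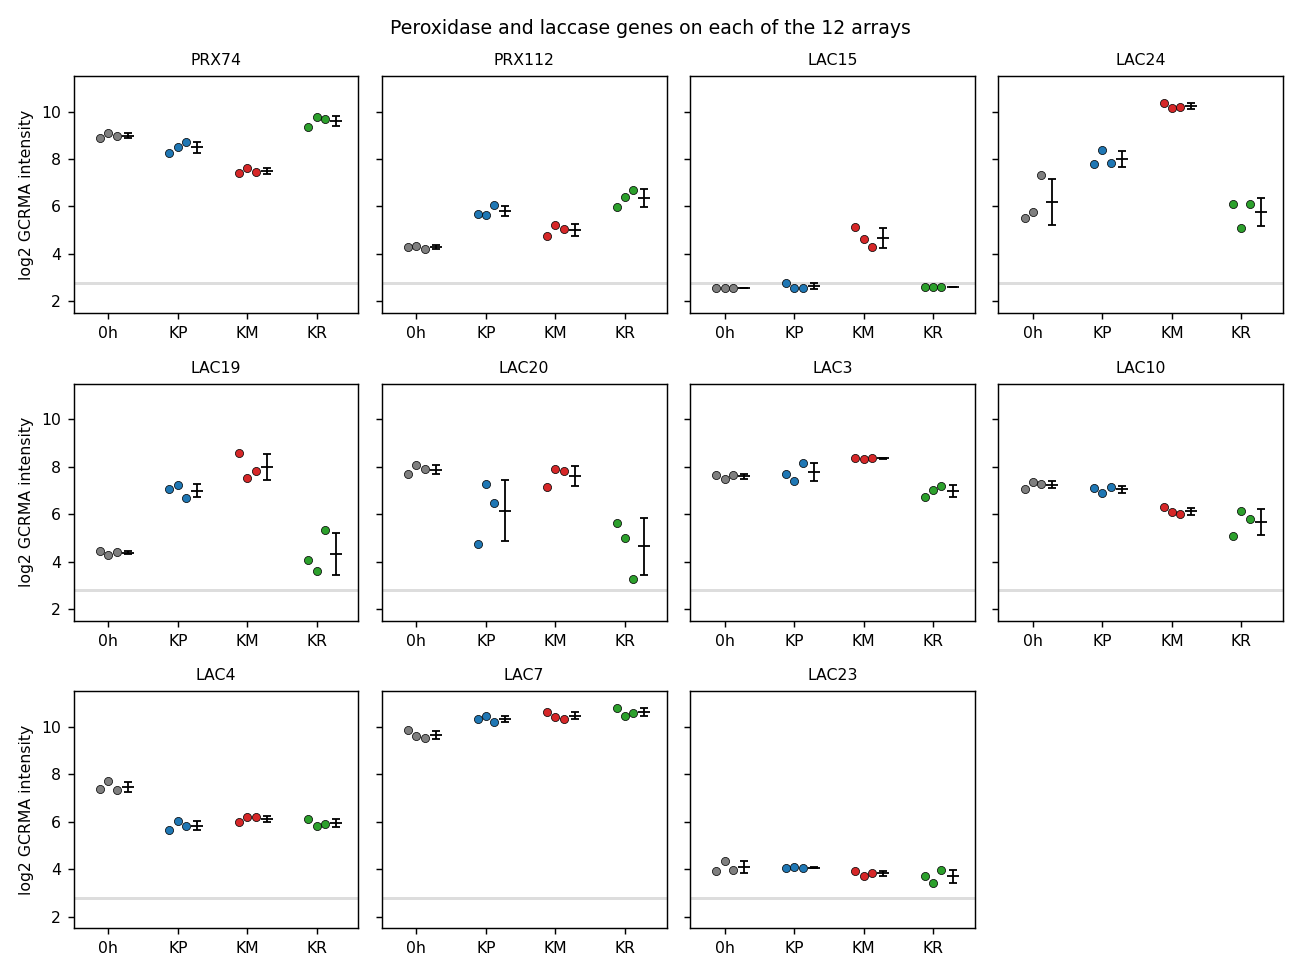
Log2 GCRMA intensity of the 11 peroxidase and laccase genes on each of the 12 arrays, with points for replicates 1 to 3 of seedlings before transfer (0h), with potassium (KP), without it (KM) and resupplied (KR). Bars give the mean and SD of 3 arrays, and the grey band the range of the arrays' medians, 2.70 to 2.83; LAC15 rose above that band only on the KM arrays and LAC24 reached 10.14 to 10.38 there, while PRX74 was lowest in KM.

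PRX74, a class III peroxidase gene on chromosome 5, was lowest without potassium and highest after resupply. Its log2 level was 8.88, 9.10 and 8.97 on the 0h arrays, 8.25, 8.49 and 8.74 in KP, 7.40, 7.63 and 7.44 in KM, and 9.34, 9.76 and 9.69 in KR. No 2 of the 4 groups overlapped. From KM to KR it rose 4.31-fold, by 2.11 ± 0.14 (limma's standard error, as in the rest of the text) on the log2 scale (adjusted p = 3.92e-05). KR also stood 2.16-fold above KP (log2 change 1.11 ± 0.14, adjusted p = 6.33e-04), but without KP replicate 1 this change came to 0.99, under 2-fold. In KM against KP the log2 change was -0.999 ± 0.14 (95% interval -1.32 to -0.67, adjusted p = 0.00264), which lay just short of 2-fold and was not called. After quantile normalization or a shift to equal medians it was -1.01 and called lower, as it was without KP replicate 1 (-1.12), KP replicate 2 or KM replicate 2 (-1.07).

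PRX112, a second class III peroxidase gene, lies on chromosome 7 and has 2 probe sets. On the brighter it read 4.30, 4.35 and 4.21 at 0h, 5.70, 5.65 and 6.06 in KP, 4.75, 5.23 and 5.05 in KM, and 5.98, 6.39 and 6.70 in KR. All KR arrays lay above all KM arrays, and all KM arrays below all KP arrays, while KP and KR overlapped. It rose 2.54-fold from KM to KR (log2 change 1.34 ± 0.19, adjusted p = 9.39e-04) and 2.86-fold from 0h to KP (1.52 ± 0.19, adjusted p = 2.28e-04). In KM against KP the log2 change was -0.80 ± 0.19 (adjusted p = 0.0299), under the 2-fold threshold.

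The dimmer PRX112 probe set gave another picture. It read 4.25, 4.29 and 4.09 at 0h, 3.83, 4.09 and 4.24 in KP, 4.45, 4.97 and 4.49 in KM, and 4.66, 4.72 and 4.75 in KR. Here KM lay above KP, by 0.58 ± 0.14 (adjusted p = 0.0346), and KR and KM overlapped, with a log2 change of 0.080 ± 0.14 (95% interval -0.25 to 0.41, adjusted p = 0.677). The 2 probe sets thus had opposite signs in KM against KP, and the rise of PRX112 on resupply rests on the brighter one. Which transcripts each probe set reads was not analysed here.

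LAC15, a laccase gene on chromosome 10, was above background on the KM arrays alone. It read 2.58, 2.57 and 2.58 at 0h, 2.79, 2.56 and 2.58 in KP, 5.14, 4.62 and 4.28 in KM, and 2.61, 2.60 and 2.59 in KR. Every KM array stood above the 9 others, which lay within the range of the array medians or under it. The change was 2.04 ± 0.17 in KM against KP (4.10-fold, adjusted p = 1.71e-04) and -2.08 ± 0.17 in KR against KM (4.22-fold lower, adjusted p = 1.06e-04). These sizes depend on where background lies. With 16 added to every intensity before the log they came to 0.91 and -0.92, under 2-fold, with adjusted p of 0.00112 and 5.12e-04. Between KR and KP the log2 change was -0.041 ± 0.17 (95% interval -0.44 to 0.35).

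LAC24, a laccase gene on chromosome 12, was highest without potassium and low both at 0h and after resupply. It read 5.53, 5.75 and 7.31 at 0h, 7.77, 8.39 and 7.85 in KP, 10.38, 10.14 and 10.20 in KM, and 6.11, 5.11 and 6.08 in KR. The KM arrays stood above all others, and every KR array below every KP array. LAC24 was 4.70-fold higher in KM than in KP (2.23 ± 0.46, adjusted p = 0.0142), and without KP replicate 1 the adjusted p was 0.0536. After resupply it was 22.2-fold lower than in KM (-4.47 ± 0.46, adjusted p = 2.42e-04). It then stood 4.72-fold below KP (-2.24 ± 0.46, adjusted p = 0.00493). From 0h to KP it rose by 1.81 ± 0.46 (adjusted p = 0.0149). In the 0h group replicate 3 lay well above the other arrays, and this last call was lost without 0h replicate 1 (adjusted p = 0.0571), 0h replicate 2 (0.0590) or KP replicate 2 (0.0584).

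LAC19, a laccase gene on chromosome 11, also fell on resupply. Its level was 4.44, 4.29 and 4.41 at 0h, 7.06, 7.21 and 6.67 in KP, 8.57, 7.52 and 7.82 in KM, and 4.05, 3.62 and 5.32 in KR. The KR arrays lay below every KP and KM array and around those of 0h. It fell 12.5-fold from KM to KR (-3.64 ± 0.42, adjusted p = 3.96e-04) and stood 6.28-fold below KP (-2.65 ± 0.42, adjusted p = 0.00145). From 0h to KP it rose 6.07-fold (2.60 ± 0.42, adjusted p = 0.00103). In KM against KP the groups did not overlap, but the change of 0.99 ± 0.42 was not called (95% interval 0.045 to 1.93, adjusted p = 0.227).

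LAC20 is the next gene to LAC19 on chromosome 11, with 0 protein-coding genes between them in the RefSeq assembly. It read 7.67, 8.07 and 7.89 at 0h, 4.74, 7.25 and 6.45 in KP, 7.13, 7.91 and 7.82 in KM, and 5.64, 4.99 and 3.28 in KR. Its spread was the widest of the 11 members in both KP (SD 1.28) and KR (SD 1.22), and these groups overlapped. It fell 7.89-fold from KM to KR (-2.98 ± 0.71, adjusted p = 0.00957), a call that the methods' t-test did not make (adjusted p = 0.0548). No other comparison called it. The log2 change was 1.47 ± 0.71 in KM against KP (95% interval -0.13 to 3.07, adjusted p = 0.321), -1.51 ± 0.71 in KR against KP (adjusted p = 0.111) and -1.73 ± 0.71 in KP against 0h (adjusted p = 0.121). Without KP replicate 1, the lowest KP array, KR was called lower than KP (-2.21, adjusted p = 0.0284), and with dim probe sets left out KP was called lower than 0h (adjusted p = 0.0292). The neighbours LAC19 and LAC20 thus both fell after resupply, but from 0h to KP LAC19 rose while LAC20 had a change of negative sign that was not called.

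LAC3, a laccase gene on chromosome 1, was the fifth to fall on resupply. It read 7.65, 7.48 and 7.63 at 0h, 7.69, 7.41 and 8.17 in KP, 8.36, 8.34 and 8.36 in KM, and 6.71, 7.02 and 7.19 in KR. KR lay below every other group with no overlap. The fall from KM was 2.60-fold (-1.38 ± 0.18, adjusted p = 6.42e-04). In KR against KP the change was -0.78 ± 0.18 (adjusted p = 0.00828), under 2-fold, and in KM against KP it was 0.59 ± 0.18 (adjusted p = 0.0748).

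LAC10, a laccase gene on chromosome 3, had a different order of groups. Its level was 7.07, 7.36 and 7.27 at 0h, 7.12, 6.87 and 7.16 in KP, 6.29, 6.07 and 6.01 in KM, and 5.08, 6.14 and 5.80 in KR. Both KM and KR lay below KP on every array, and KM and KR overlapped. KR was 2.59-fold below KP (-1.38 ± 0.23, adjusted p = 0.00198). KM was below KP by less than 2-fold (-0.92 ± 0.23, adjusted p = 0.0348), and KR against KM gave -0.45 ± 0.23 (adjusted p = 0.139). It was the laccase with the most negative change in KM against KP, where LAC15 and LAC24 rose.

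**Figure D2:**
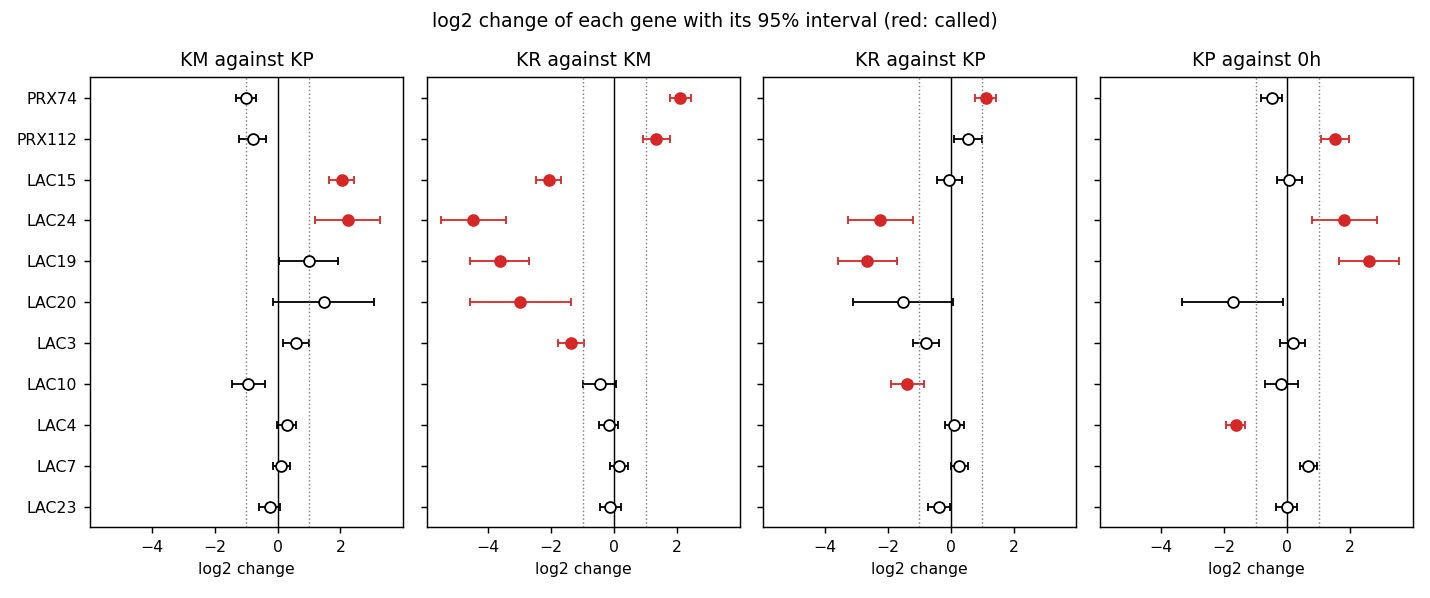
Log2 change of each of the 11 genes, with its 95% interval from the limma fit, in each of the 4 comparisons. Red points were called (adjusted p under 0.05 and at least 2-fold, dotted lines); in KR against KM both peroxidases lie to the right (2.11 and 1.34) and 5 laccases to the left (-1.38 to -4.47).

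The remaining 3 laccases were not called in any comparison that involves KM or KR. LAC4, a laccase gene on chromosome 1, read 7.38, 7.71 and 7.32 at 0h, 5.67, 6.01 and 5.83 in KP, 5.97, 6.18 and 6.22 in KM, and 6.12, 5.83 and 5.90 in KR. It fell 3.10-fold from 0h to KP (-1.63 ± 0.13, adjusted p = 1.30e-05), with no overlap, while KP, KM and KR overlapped. Its 95% intervals were -0.0087 to 0.59 in KM against KP and -0.47 to 0.12 in KR against KM.

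LAC7, another laccase gene on chromosome 1, is measured by a probe set that by its suffix is shared between transcripts of 1 gene. Its level ran from 9.54 to 9.86 at 0h, from 10.22 to 10.45 in KP, from 10.34 to 10.63 in KM and from 10.45 to 10.80 in KR. KP lay above 0h by 0.67 ± 0.12 (adjusted p = 0.00213), under 2-fold. The 3 later groups overlapped, and the intervals were -0.15 to 0.39 in KM against KP and -0.12 to 0.43 in KR against KM.

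LAC23, on chromosome 12 with LAC24, had changes under 2-fold in all 4 comparisons. It ran from 3.93 to 4.37 at 0h, from 4.05 to 4.10 in KP, from 3.72 to 3.90 in KM and from 3.40 to 3.97 in KR. None of its 4 changes was called, and the largest was -0.37 ± 0.15 in KR against KP (adjusted p = 0.0720).

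The calls on resupply are given here by family as a description of 11 genes, and a difference between the families was not tested. In KR against KM both peroxidases were called higher (PRX112 on its brighter probe set alone) and 0 of 9 laccases were, while 5 of 9 laccases and 0 of 2 peroxidases were called lower. The median log2 change of the 9 laccases was 0.59 for KM minus KP, -1.38 for KR minus KM and -0.78 for KR minus KP. Over all 57258 probe sets these medians were -0.00082, 0.044 and 0.047. Among the laccases, 4 were not called on resupply (LAC4, LAC7, LAC10 and LAC23), with changes between -0.45 and 0.15, and LAC7 had the same sign as the peroxidases. A shift to equal medians lowered the median change of all probe sets by 0.096 in KR against KM and by 0.10 in KR against KP. It moved the share of higher calls among all calls from 45.9% to 36.4% in KR against KM and from 35.8% to 25.7% in KR against KP.

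**Figure D3:**
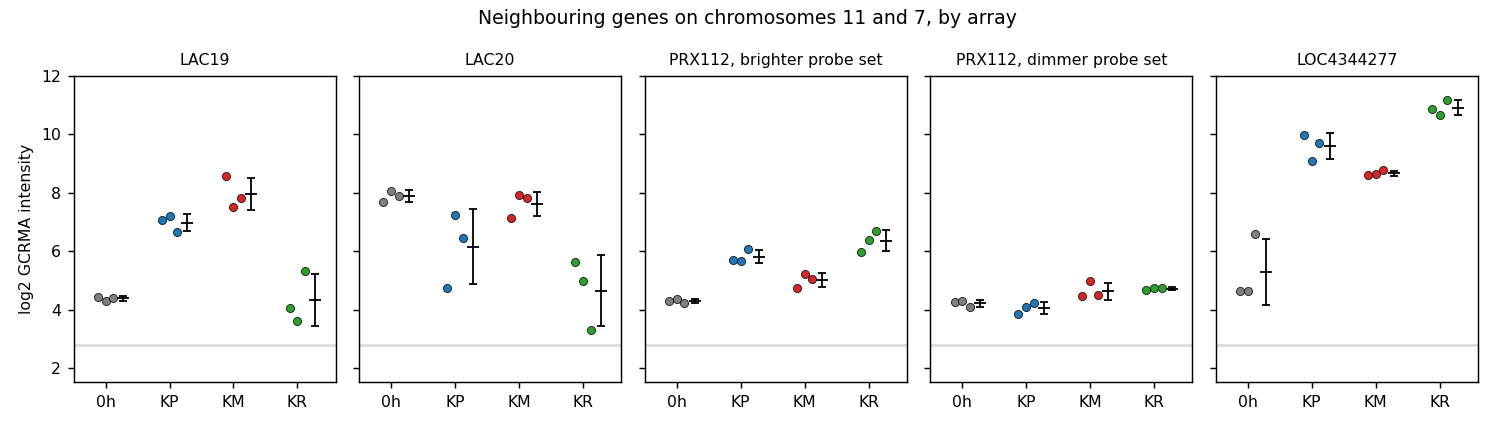
Log2 GCRMA intensity by array of the adjacent genes LAC19 and LAC20 on chromosome 11, of both probe sets of PRX112 on chromosome 7, and of LOC4344277, the gene beside PRX112. Bars give the mean and SD of 3 arrays, and the grey band the arrays' medians; LAC19 and LAC20 were both low in KR, and the dimmer PRX112 probe set lacks the dip in KM that the brighter shows.

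The gene beside PRX112 on chromosome 7, with 0 protein-coding genes between, is LOC4344277, whose only family name in the gene table is peroxidase and which is outside the rule. It read 4.64, 4.63 and 6.60 at 0h, 9.99, 9.10 and 9.70 in KP, 8.61, 8.64 and 8.76 in KM, and 10.88, 10.66 and 11.19 in KR. All KR arrays lay above all KP arrays and these above all KM arrays. It rose 4.73-fold from KM to KR (2.24 ± 0.48, adjusted p = 0.00631), while the change in KM against KP of -0.92 was not called. The change of 1.32 in KR against KP was not called either, and the largest change, 4.30 in KP against 0h, was called higher.

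The enzymes that make the monolignols were read from a list by symbol, 15 genes of PAL, 4CL, HCT, CCR and CAD. In KM against KP 2 of 15 were called lower and 0 higher (1 at an unadjusted p under 0.05), with a median change of -0.066. CAD3, a cinnamyl alcohol dehydrogenase by name (the enzyme type of the last step to monolignols), read 10.36, 10.35 and 10.25 in KP, 7.76, 7.99 and 7.82 in KM, and 7.71, 7.89 and 7.86 in KR. It was 5.50-fold lower in KM than in KP (-2.46 ± 0.09, adjusted p = 1.88e-06), and KR against KM gave -0.039 ± 0.094 (95% interval -0.25 to 0.17). PAL06, by name a phenylalanine ammonia-lyase, the enzyme that opens the pathway, was 2.20-fold lower in KM (-1.14 ± 0.28, adjusted p = 0.0312). That call was lost with the methods' t-test (adjusted p = 0.162), with the arrays of the 2 groups only (0.0786), and without any of the KM replicates or KP replicates 1 and 2 (0.0641 to 0.0921). A dimmer probe set of PAL06 gave -0.99 ± 0.26 (limma's adjusted p = 0.0457), just under 2-fold and not called.

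In KR against KM 1 of 15 was called lower and 0 higher (4 at an unadjusted p under 0.05), with a median of -0.039. The gene was 4CL2, a 4-coumarate:CoA ligase, which activates the acids of the pathway. It read 8.35, 8.59 and 8.59 in KP, 8.01, 8.46 and 8.49 in KM, and 5.73, 5.69 and 5.44 in KR. It thus fell 6.50-fold on resupply (-2.70 ± 0.15, adjusted p = 1.51e-05). In KR against KP 3 of 15 were called lower, CAD3, 4CL2 and PAL06, and 0 higher (4 at an unadjusted p under 0.05). The methods' t-test called 0 of the 15 higher in each of these 3 comparisons. In KP against 0h 4 were called higher and 2 lower.

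Of 4 genes that make superoxide or turn it into peroxide, the substrate of peroxidases, 0 were called without potassium or on resupply by limma or the methods' t-test, and 1 was called higher in KR against KP. At an unadjusted limma p under 0.05, 3 were higher and 1 lower in KM against KP, and 1 was higher and 2 lower in KR against KM. In KM against KP limma's adjusted p was 0.00294 for SODCC.1 (log2 change 0.33) and 0.0113 for SODCC.2 (0.72), both under 2-fold. For SODA (-0.37) it was 0.105. The gene called higher in KR against KP is RBOHB, an NADPH oxidase of the plasma membrane. It read 9.00, 9.20 and 9.13 in KP, 9.50, 9.69 and 9.52 in KM, and 10.36, 10.17 and 10.32 in KR. These 3 groups did not overlap, and KR stood 2.25-fold above KP (1.17 ± 0.12, adjusted p = 2.57e-04), with steps under 2-fold from KP to KM (0.46 ± 0.12, adjusted p = 0.0441) and from KM to KR (0.71 ± 0.12, adjusted p = 0.00216). Of 7 ascorbate peroxidase genes, which clear peroxide inside the cell and belong to another peroxidase class, 0 were called in any comparison among KP, KM and KR by limma or the methods' t-test. At an unadjusted p under 0.05, 1 was higher in KM against KP, 3 were lower in KR against KM, and 1 was higher and 3 lower in KR against KP. These unadjusted counts are not read as a response, given the counts over all probe sets above. Their changes ran from -0.18 to 0.25 in KM against KP and from -0.29 to 0.060 in KR against KM.

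Of 4 genes of the secondary wall, where lignin is laid down (the cellulose synthases CESA4, CESA7 and CESA9 and the COBRA-like BC1), 0 were called in any of the 4 comparisons by limma or the methods' t-test. All 4 were lower at an unadjusted p under 0.05 in both KM and KR against KP, 2 were lower in KP against 0h and 0 differed in KR against KM. In KM against KP their changes ran from -0.73 to -0.44, and in KR against KM from 0.065 to 0.23. Limma's adjusted p in KM against KP was 0.0156 for CESA9, 0.0312 for CESA4 and 0.0336 for BC1, so these missed only the 2-fold threshold. For CESA7 it was 0.0568, and for a dimmer probe set of CESA4 0.106.

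**Figure D4:**
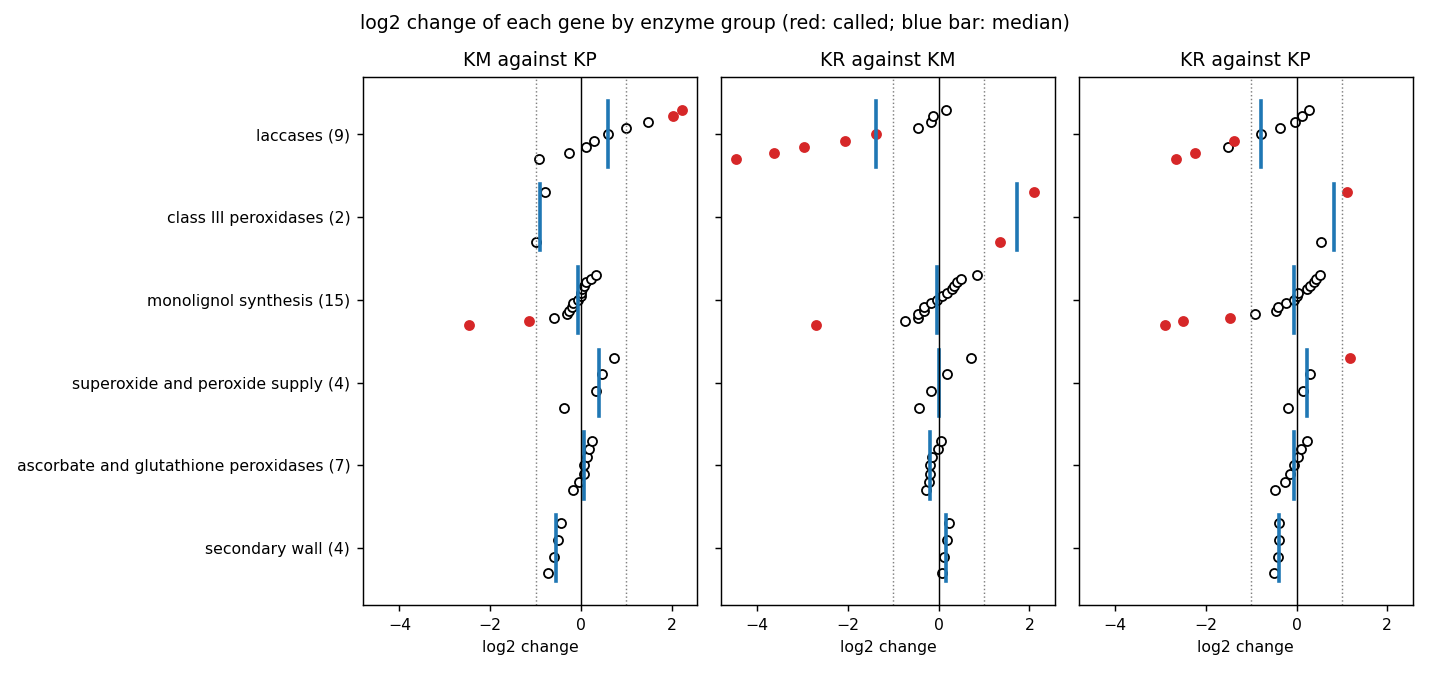
Log2 change of each gene, by enzyme group, in the 3 comparisons among KP, KM and KR, with the number of genes in brackets. Red points were called, blue bars mark the group's median and dotted lines 2-fold; the laccases spread from -4.47 to 0.15 in KR against KM, while the 7 ascorbate peroxidases (no glutathione peroxidase matched by symbol) stay within -0.29 to 0.060.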

How the data were processed

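RNA of rice seedlings was hybridised to 12 Affymetrix arrays, 3 biological replicates each of 0h, KP, KM and KR, grouped by title and source name. Whether replicates are separate plantings is not stated, so p-values measure the spread between these arrays. GCOS 1.2.1 is named in the submitters' processing notes. Per the methods, the authors normalised the signals by GCRMA. The deposited intensity values are these signals on a linear scale. GCRMA models background by probe sequence, which leaves dim probe sets near a common floor. Values were set to at least 1 before log2, which altered 0 of them. Of 57381 probe sets 123 controls were left out.

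limma 3.58.1 (R 4.3.3) was fitted to all 12 arrays with 1 mean per group, and p-values were adjusted by Benjamini-Hochberg over 57258 probe sets. The number of arrays limits the precision. The fit was tested on simulated data with known changes. Genes were named from the array's annotation (22436 probe sets with 1 gene, 95 with several, 34727 with none) and the RefSeq gene table of assembly ASM3414082v1. Probe sets with several genes were not used. No coordinates are given, since the build of the array's annotation is not stated in the sources used here. Sequences of members were not analysed here.

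The rule for named genes took the members called in KM against KP or KR against KM, the 5 largest rises and falls among those called in the other comparisons, the 8 brightest members, members the paper names (LAC15) and tandem neighbours, which left LAC23 alone outside it. LAC23, LOC4344277 and the called genes of the pathway lists were named after their values were seen. Members and lists were chosen with earlier results of these data known. From the monolignol list 50 genes named C3H with a number, a name of zinc-finger proteins here, were left out. The symbol lists matched 15 monolignol, 4 superoxide, 7 ascorbate peroxidase and 4 secondary wall genes, and 0 dirigent proteins. Markers matched 8 of 12 root, 4 of 13 leaf and 6 of 13 seed names. Alternatives covered scaling, a filter on dim probe sets, the methods' t-test, other thresholds, a pseudocount, a block for the replicate number and each array left out.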

Additional observations from a re-analysis of the deposited data

How the results depend on the processing

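Of the counts of members called, the count in KM against KP (2) changed by more than 1.5 times, to 5 with a 1.5-fold or no fold threshold, where LAC10, PRX74 and PRX112 were added as lower, and to 1 with a pseudocount of 16. Leaving out 1 array gave 2 to 3 members for KM against KP, 7 for KR against KM, 4 for KR against KP and 3 to 4 for KP against 0h. Over all probe sets KM against KP (1457 called) gave 722 with the methods' t-test, 3364 at 1.5-fold, 5979 with no fold threshold and 1218 to 1493 without 1 array. KR against KM (2183) gave 5066, 26107 and, with the pseudocount, 1419. KR against KP (1834) gave 4694 and 25254, and KP against 0h (6632) gave 11367 and 15284. With the lowest probe set per gene, KR against KM called 6 members, since PRX112 was lost.

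The sign of 5 changes that were not called turned when an array was left out. In KR against KM LAC23 ran from -0.25 to 0.031, highest without KR replicate 2, and in KP against 0h from -0.10 to 0.12, highest without 0h replicate 2. LAC15 ran from -0.081 to 0.030 in KR against KP and from -0.0025 to 0.11 in KP against 0h, both turned without KP replicate 1. LAC3 ran from -0.035 to 0.34 in KP against 0h, negative without KP replicate 3. No called change of a member turned its sign under any alternative run. LAC24 in KP against 0h was not called by the methods' t-test (adjusted p = 0.148) or with the arrays of the 2 groups only (0.0854).

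The labels link same-numbered arrays by their number alone. Deviations from the group means of such arrays correlated between -0.11 and 0.12, which cannot tell whether they shared a planting or a batch. With a replicate block 2, 7, 4 and 4 members were called in the 4 comparisons in the same order, as without it, and all probe sets called were 1361, 2158, 1801 and 6576. PAL06 in KM against KP was not called with the block (adjusted p = 0.0581). With C3H names kept, the monolignol list had 5 genes called in KM against KP, 2 in KR against KM and 13 in KP against 0h, an alternative added after seeing the data, as were all those for the lists. The overlap of members called in KM against KP and KR against KM was not run, since both use the KM arrays. Dim signal outside KM limits LAC15.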

Other observations

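Some peroxidase and laccase probe sets lie outside the rule, which needs a PRX or LAC name and a probe set with 1 gene in the array's annotation. Which of these was missing was not checked for each probe set. The study's list of genes changed between KM and KP on these arrays holds 7 probe sets outside the rule. Their calls in KM against KP are thus no independent evidence. Their changes in KR against KM and KR against KP reuse the KM or KP arrays that chose them, and are given as description. LOC_Os07g48050, described there as a peroxidase, read 2.65, 2.64 and 2.64 in KP, 6.70, 6.50 and 6.80 in KM, and 2.73, 2.92 and 2.99 in KR. As with LAC15, the KM arrays stood far above the others. The laccase locus LOC_Os12g15680 read 3.51, 4.35 and 3.32 in KP, 6.54, 6.54 and 6.30 in KM, and 2.92, 2.44 and 3.20 in KR, and fell by 3.61 on the log2 scale from KM to KR (± 0.27, adjusted p = 5.62e-05). The peroxidases LOC_Os07g47990 and LOC_Os10g02070 were high in KP and KR and low in KM, as PRX74 was. LOC_Os07g47990 read 10.04, 10.28 and 10.33 in KP, 8.49, 8.53 and 8.48 in KM, and 10.62, 10.27 and 10.52 in KR. On chromosome 7, 1 protein-coding gene lies between it and LOC4344277, and 2 between it and PRX112. LOC_Os12g08920 and LOC_Os01g73170, also peroxidases by description, were still higher in KR than in KP, by 1.69 ± 0.12 (adjusted p = 6.03e-05) and 1.15 ± 0.18 (adjusted p = 0.00124). Of the 7 probe sets, 5 were called higher and 2 lower in KM against KP. All were chosen for a change there, so they do not show how peroxidases outside the rule moved in general.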
